A study of Homo sapiens with 17 samples.

Results

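Stress granule mRNAs were followed in an acRIP-seq experiment on HEK293T cells, a transformed human embryonic kidney line. The 9 members were the count table rows for G3BP1, G3BP2, TIA1, TIAL1, CAPRIN1, USP10, PABPC1, PABPC4 and ATXN2L, chosen by name as core granule and poly(A)-binding proteins, out of 23368 genes in the table. All 9 were found, and all 9 passed the low-count filter in every comparison. N4-acetylcytidine (ac4C) is a modified base written by the acetyltransferase NAT10, and acRIP-seq reads the poly(A) RNA that an antibody against it retains beside the starting RNA. TARDBP encodes the RNA-binding protein TDP43, and cells labelled WT were set against cells transfected with siRNA to it (siTDP43). WT and siTDP43 are called genotypes below for short, although they differ by siRNA treatment and not by a change made to a gene. Each genotype gave 3 fractions, namely the input, the fraction bound by the ac4C antibody (IP) and the fraction bound by immunoglobulin G (IgG). There were 17 libraries, 3 per group except WT IgG with 2. The labels name no control siRNA for WT, so transfection and knockdown of TDP43 cannot be told apart. Any other difference in handling between WT and siTDP43 cells would go with the same labels. The labels do not say that replicates came from separate cultures, and the methods speak of independent samples for most experiments without naming these libraries, so p-values measure the spread between these libraries, which may be technical.

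Stress granules are cytoplasmic assemblies of mRNA stalled before translation and of the proteins bound to it, and they form when translation initiation is blocked, often by phosphorylation of eIF2alpha. G3BP1 and G3BP2 are the RNA-binding scaffolds that start them. CAPRIN1 and USP10 compete for the same surface of G3BP, the first favouring assembly and the second opposing it. TDP43 itself can enter stress granules. The libraries measured the mRNAs that encode these proteins, not the proteins or the granules.

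Total counts per library were 24542434 to 36583436 in the inputs, 8610070 to 21066215 in the IPs and 3013989 to 9466855 in the IgG pull-downs, with the siTDP43 IgG libraries the shallowest. TARDBP mRNA in the siTDP43 inputs was 67.2% of WT (log2 -0.57 ± 0.045 SE, n = 3 and 3, edgeR adjusted p = 6.55e-13). NAT10 mRNA was 218% of WT (log2 1.12 ± 0.050, edgeR adjusted p = 5.12e-19). CPM is counts relative to library size, which was left unscaled for the cell type markers and was scaled elsewhere. Of 9 markers of HEK293T cells, 7 were above 1 CPM in all 6 inputs and PAX2 and LHX1 were not. Levels of those that were above 1 CPM differed between genotypes, with KRT8 at 204 to 219 CPM in WT and 37.7 to 43.2 CPM in siTDP43. Of 11 markers of other cell types none exceeded 8.44 CPM, 6 were below 1 CPM in all 6 inputs, and PTPRC, PECAM1, CDH5 and MYH2 were at 0.

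Sequence was examined in the exons of the count table (hg19), read on the transcribed strand. The first pair of motifs below was named by the study, for ac4C and for TDP43, and the UG repeat was added because TDP43 is known to bind such repeats. The ac4C motif TCCCAGCT was found in 0 of 9 members, against 24.1% of the 7682 genes with counts and an exon length between 2835 and 6861 bases, the span of the members. The UG-rich TDP43 motif TGTGCG was found in 4 of 9, against 36.0% of those genes. The UG repeat TGTGTG was found in 9 of 9, against 78.8%. Matches to the last pair of motifs can overlap each other. TIA1 had 5 TGTGTG matches, all in its 3′ UTR, and CAPRIN1 had 4 in its 3′ UTR and 1 in its coding sequence. A match is a stretch of letters and not a binding site.

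The 4 members with TGTGCG are shown because they return in the comparison of pull-down over input between the genotypes. Each line is a 30-base window of the hg19 genome, written 5′ to 3′ on the strand of the gene with the motif in capitals, and the regions follow the GENCODE annotation lifted to that build.
G3BP1, 5′ UTR of a non-canonical transcript, chr5:151151503-151151532, plus strand: gagcacgcgtgTGTGCGgacgcagttgcgt
G3BP2, coding sequence, chr4:76573863-76573892, minus strand: cagccacctcgTGTGCGtgaacaacgacct
G3BP2, 5′ UTR of a non-canonical transcript, chr4:76598216-76598245, minus strand: acggtgccgtgTGTGCGtgagagaagacca
USP10, 5′ UTR, chr16:84733604-84733633, plus strand: gcgagtgtgtaTGTGCGggcgagaagatgg
USP10, 3′ UTR, chr16:84812684-84812713, plus strand: tgtaaaccctgTGTGCGctgtgtgtgcgcc
PABPC4, 5′ UTR, chr1:40041828-40041857, minus strand: gagggccgtatTGTGCGgagagccttttgt
The USP10 3′ UTR window holds a further match, in small letters, 11 bases downstream, so USP10 had 3 matches in all, more than any other member. In G3BP1, USP10 and PABPC4 every TGTGCG match lay outside the coding sequence.

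Levels in input RNA were ordered per length as FPKM (CPM per kilobase of exon). In WT, PABPC1, the main cytoplasmic poly(A)-binding protein, stood first at 283 ± 5.69 FPKM (SD, n = 3). G3BP1 followed at 53.5 ± 0.785, USP10 at 38.8 ± 0.551 and CAPRIN1 at 37.6 ± 0.357. G3BP2 at 20.7 ± 0.556 and ATXN2L at 20.1 ± 0.434 overlapped in their libraries. TIAL1 at 12.3 ± 0.498, TIA1 at 11.2 ± 0.269 and PABPC4 at 9.85 ± 0.625 came last, with no overlap between neighbours. In siTDP43 the order changed at both ends. G3BP1 led with 140 to 143 FPKM, above PABPC1 with 130 to 132 FPKM. G3BP2 came next with 79.8 to 88.6 FPKM, ahead of CAPRIN1 and USP10. TIA1, with 19.7 to 21.5 FPKM, stood above TIAL1, with 9.69 to 11.1 FPKM. PABPC4 with 2.73 to 3.16 FPKM and ATXN2L with 2.60 to 2.92 FPKM were last and overlapped.

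**Figure D1:**
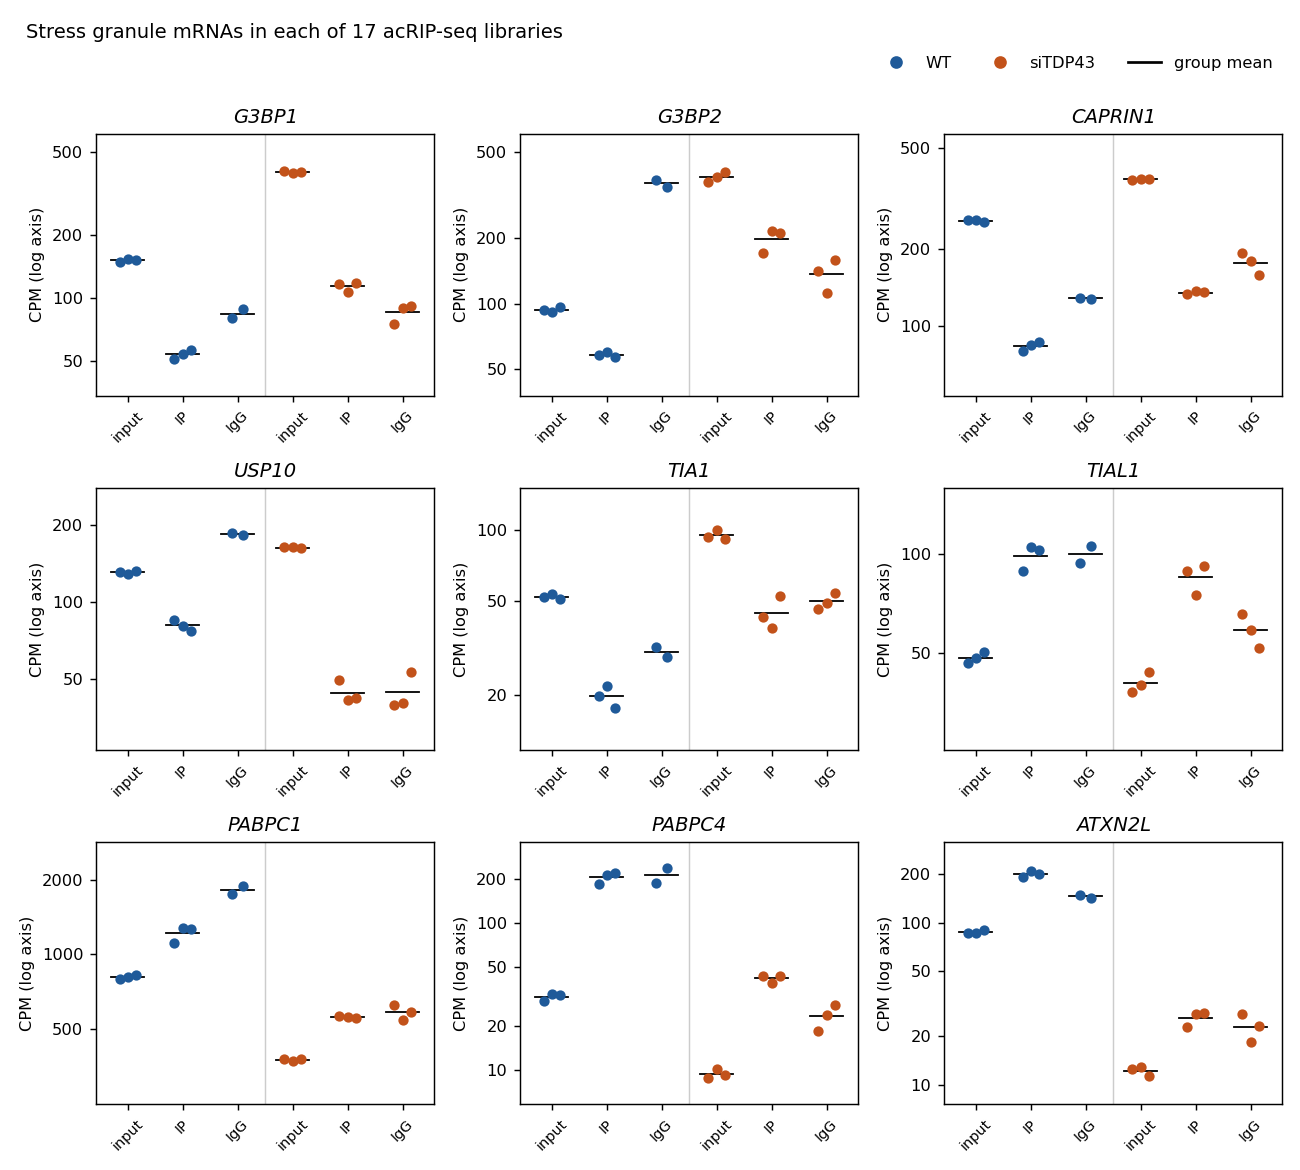
CPM (TMM-scaled, log axis that differs between panels) of the 9 stress granule mRNAs in each library of the 6 groups, with a line at each group mean. In the input columns, G3BP1, G3BP2, CAPRIN1, USP10 and TIA1 sit higher in siTDP43 and TIAL1, PABPC1, PABPC4 and ATXN2L lower, with no overlap between genotypes.

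The first comparison asked whether these mRNAs differed in abundance between siTDP43 and WT input RNA. All 9 passed an adjusted p of 0.05 in edgeR's quasi-likelihood test. Those of both G3BP scaffolds, both of their binding partners and TIA1 rose (5 of 9), and those of TIAL1, both poly(A)-binding proteins and ATXN2L fell (4 of 9). Most genes passed in this comparison: 38.6% of the 14036 genes tested were called higher and 40.6% lower, so the number of members called does not set them apart. In these bulk libraries, fewer cells that express a gene and less RNA per cell cannot be told apart. The sizes of the changes are therefore given for each member, and over all genes tested the median was -0.05 on the log2 scale.

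The G3BP scaffolds had the largest rises. G3BP2 (hg19 chromosome 4, 76567953 to 76598667, minus strand) was at 93.31, 91.87 and 96.79 CPM in the WT inputs and at 363.1, 381.7 and 403.4 CPM in the siTDP43 inputs. This was a log2 change of 2.03 ± 0.044 (SE, n = 3 and 3), or 4.09-fold (edgeR adjusted p = 6.13e-27). G3BP1 (chromosome 5, 151151476 to 151184915, plus strand) went from 149.3, 153.5 and 152.6 CPM to 405.5, 396.9 and 401.2 CPM. Its log2 change was 1.41 ± 0.039, or 2.65-fold (edgeR adjusted p = 2.37e-24). Neither gene's groups came near to overlapping.

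The G3BP partners rose less. CAPRIN1, an RNA-binding partner that promotes granule assembly, was at 259.4, 258.7 and 254.8 CPM in WT and at 374.4, 376.5 and 378.1 CPM in siTDP43 (log2 0.55 ± 0.037, edgeR adjusted p = 1.83e-14). Its gene (chromosome 11, 34073230 to 34124157, plus strand) ends 2953 bases before the start of NAT10 on the same strand. USP10, a deubiquitinase that binds G3BP and opposes assembly, was at 131.1, 129.3 and 133.0 CPM in WT and at 164.0, 164.0 and 162.7 CPM in siTDP43 (chromosome 16, 84733555 to 84813527, plus strand). Its change of 1.25-fold (log2 0.32 ± 0.042, edgeR adjusted p = 3.32e-08) was the smallest of the rises.

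The related proteins TIA1 and TIAL1, which bind U-rich RNA and join granules through their prion-like tails, moved in opposite directions. TIA1 (chromosome 2, 70436576 to 70475779, minus strand) was at 51.82, 53.28 and 50.79 CPM in WT and at 93.08, 100.2 and 91.63 CPM in siTDP43 (log2 0.87 ± 0.053, edgeR adjusted p = 1.26e-15). TIAL1 (chromosome 10, 121332978 to 121356541, minus strand) was at 46.69, 48.29 and 50.59 CPM in WT and at 38.20, 40.04 and 43.87 CPM in siTDP43. Its log2 change of -0.25 ± 0.065 was the smallest of all members (edgeR adjusted p = 0.000872), and the highest siTDP43 library lay below the lowest WT library.

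The poly(A)-binding proteins, which coat mRNA tails and are standard granule markers, both fell. PABPC1 was at 793.0, 808.4 and 825.5 CPM in WT and at 378.5, 373.0 and 377.1 CPM in siTDP43 (log2 -1.10 ± 0.036, or 46.7% of WT, edgeR adjusted p = 2e-22). It has close relatives and processed copies elsewhere in the genome, and only uniquely aligned reads were counted, so its level is uncertain. PABPC4 (chromosome 1, 40026485 to 40042521, minus strand), first known as an inducible form, was at 29.26, 33.0 and 32.38 CPM in WT and at 8.737, 10.14 and 9.185 CPM in siTDP43. Its log2 change was -1.75 ± 0.093, or 29.7% of WT (edgeR adjusted p = 3.64e-17).

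ATXN2L, a relative of ataxin-2 that joins granules and affects their number, had the largest change of all members (chromosome 16, 28834414 to 28848558, plus strand). It was at 86.77, 86.43 and 89.87 CPM in WT and at 12.49, 12.75 and 11.35 CPM in siTDP43, or 14.0% of WT (log2 -2.84 ± 0.068, edgeR adjusted p = 5.56e-26). The siTDP43 inputs held 320 to 396 counts of ATXN2L and 256 to 277 of PABPC4, the fewest of the members, and still lay far from WT.

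Exon GC content moved with these changes. Over all genes tested, the median log2 change fell from 0.30 among genes of at most 40% GC to -0.82 among those above 60%. GC content was 36.7% in TIA1, 40% in TIAL1 and CAPRIN1, 41.2% in G3BP2 and 41.6% in G3BP1. It was 46.1% in PABPC1, 47.2% in USP10, 54.4% in PABPC4 and 60.3% in ATXN2L. When a GC trend was removed from each library, the 5 rises and 4 falls remained, at 1.74 for G3BP2, 1.13 for G3BP1, 0.61 for TIA1, 0.25 for CAPRIN1 and 0.21 for USP10. The falls were then -0.55 for TIAL1, -1.26 for PABPC1, -1.59 for PABPC4 and -2.31 for ATXN2L. TIAL1 and CAPRIN1 had the same GC content and changed in opposite directions. The part of GC content in the members' changes was not tested. Every other setting tried left all 9 directions and calls in this comparison as they were.

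**Figure D2:**
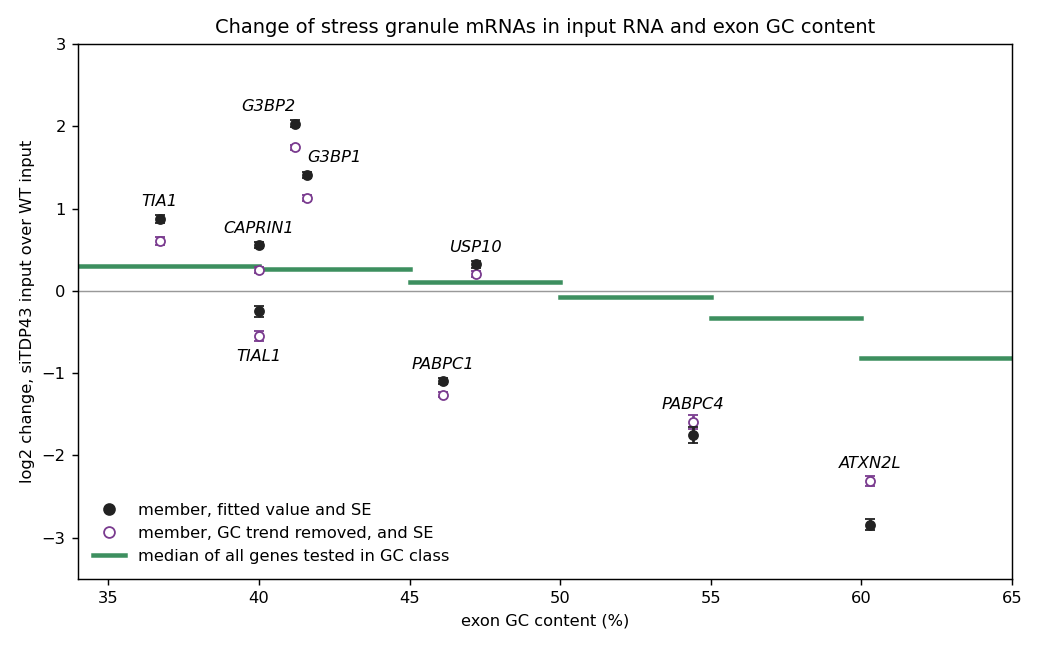
Log2 change of each stress granule mRNA between siTDP43 and WT input (y axis) against exon GC content in percent (x axis), as fitted (filled) and with a GC trend removed (open), with SE bars and the median of all genes tested in each GC class (green lines, outer classes cut at the plot edge). PABPC1 at -1.10 lies well below the all-gene line of its class, and G3BP2 at 2.03 well above.

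The second question was whether the members were enriched by the ac4C antibody in WT cells. Against input, PABPC4, ATXN2L and TIAL1 were higher in IP (3 of 9, against 30.2% of 14751 genes), by an adjusted p under 0.05 and more than 2-fold. G3BP1, TIA1 and CAPRIN1 were lower (3 of 9, against 27.3%). Against IgG, no member was higher (0 of 9, against 35.2%), and G3BP2 and USP10 were lower (2 of 9, against 17.8%). Genes called higher against both controls are written ac4C(+), and no member was ac4C(+) in WT (0 of 9, against 15.6% of genes).

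PABPC4 had the largest rise over input. It was at 184.0, 213.4 and 220.9 CPM in WT IP, or 6.55-fold over input (log2 2.71 ± 0.082, n = 3 and 3, edgeR adjusted p = 2.07e-19). It was at 188.2 and 238.0 CPM in WT IgG, so both pull-downs held it at a like level and their libraries overlapped. TIAL1 was the same in this respect, at 88.78, 105.4 and 103.1 CPM in WT IP and at 93.88 and 106.0 CPM in WT IgG. IP over IgG was -0.07 ± 0.086 for PABPC4 (edgeR adjusted p = 0.474) and -0.03 ± 0.082 for TIAL1 (edgeR adjusted p = 0.732). Removing the GC trend put PABPC4 at -0.84 (edgeR adjusted p = 1.88e-09), with IP below IgG.

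ATXN2L was the member with the highest value of IP over IgG in WT. It was at 192.7, 209.4 and 200.1 CPM in IP and at 148.5 and 142.7 CPM in IgG, with no overlap. The log2 difference of 0.44 ± 0.062 (n = 3 and 2, edgeR adjusted p = 7.78e-07) was 1.36-fold and under the fold threshold. With the GC trend removed it was -0.58, the opposite sign.

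G3BP2 showed the reverse. It was at 58.28, 60.03 and 56.65 CPM in WT IP and at 372.0 and 345.1 CPM in WT IgG, the lowest IgG library being far above every input and IP library of WT. IP was thus at 16.1% of IgG (log2 -2.64 ± 0.062, edgeR adjusted p = 1.42e-20). G3BP1 was at 51.46, 53.99 and 56.38 CPM in IP and at 80.31 and 88.71 CPM in IgG, a log2 difference of -0.67 ± 0.073. IgG was thus above input for G3BP2 and below input for G3BP1, without overlap.

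The members lower in IP than in input were CAPRIN1 (log2 -1.63 ± 0.053), G3BP1 (-1.49 ± 0.061) and TIA1 (-1.39 ± 0.088), and ATXN2L and TIAL1 were higher by 1.202 ± 0.054 and 1.04 ± 0.071 (edgeR adjusted p at most 2.05e-12). With the GC trend removed no member was lower by more than 2-fold, with CAPRIN1 at -0.97, G3BP1 at -0.92 and TIA1 at -0.49. ATXN2L was then at 0.40 and no longer called, whereas TIAL1 at 1.69 and PABPC4 at 2.42 were.

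USP10 was at 85.59, 81.12 and 77.22 CPM in WT IP and at 186.9 and 182.8 CPM in WT IgG (log2 -1.204 ± 0.064, edgeR adjusted p = 3.57e-14). CAPRIN1 was at 79.60, 83.57 and 86.08 CPM in IP and at 128.8 and 127.1 CPM in IgG. Both pull-downs of CAPRIN1 lay below its input. TIA1 was at 19.84, 21.75 and 17.55 CPM in IP and at 31.91 and 28.92 CPM in IgG. PABPC1 was at 1114, 1281 and 1263 CPM in IP and at 1762 and 1894 CPM in IgG. In WT, IgG was above IP without overlap for G3BP1, G3BP2, CAPRIN1, USP10, TIA1 and PABPC1.

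The control pull-down itself was compared with input. In WT, IgG was higher for PABPC4 (log2 2.78 ± 0.090), G3BP2 (1.96 ± 0.060), PABPC1 (1.203 ± 0.057) and TIAL1 (1.07 ± 0.083), which is 4 of 9 against 24.4% of genes, and lower for none (0 of 9, against 36.6%). Removing the GC trend brought USP10 to 1.13 and the number of higher members to 5. Shares of all genes called were taken in the main fits only, here and below. Counts of members under other settings therefore cannot be set against all genes. At an unadjusted p under 0.05 and with no fold threshold, edgeR put 3 members below input. These were G3BP1 (log2 -0.82), TIA1 (-0.75) and CAPRIN1 (-0.98), all within 2-fold. At the full thresholds, fold included, DESeq2 called 0 lower. For the 0 of 9 above IgG, edgeR gave 1 at an unadjusted p under 0.05 with no fold threshold (ATXN2L). DESeq2 called 0 there, again at the full thresholds.

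In siTDP43 cells, PABPC4, ATXN2L and TIAL1 were again higher in IP than in input (3 of 9, against 26.8% of 12746 genes), and USP10, G3BP1 and CAPRIN1 were lower (3 of 9, against 25.4%). The lower values were -1.72 ± 0.101 for USP10, -1.66 ± 0.075 for G3BP1 and -1.33 ± 0.073 for CAPRIN1, and scaling by total count made this 1 higher and 5 lower. After removal of the GC trend, ATXN2L at 0.70 and CAPRIN1 at -0.88 were no longer called, which left 2 higher and 2 lower. Against IgG, no member was higher (0 of 9, against 34% of genes) and none was lower (0 of 9, against 15%). At an unadjusted p under 0.05 with no fold threshold, edgeR put 4 above IgG (G3BP1, G3BP2, TIAL1 and PABPC4) and 2 below (CAPRIN1 and PABPC1), and DESeq2 called 0 each way at the full thresholds. Once the GC trend was removed, none of those 4 stayed above IgG past an adjusted p of 0.05, and 2 members, CAPRIN1 at -1.47 and TIA1 at -1.33, were called lower. No member was ac4C(+) in siTDP43 (0 of 9, against 10.3%).

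Among these, PABPC4 came nearest to the threshold over IgG. It was at 43.39, 39.10 and 43.97 CPM in siTDP43 IP and at 18.36, 23.47 and 27.75 CPM in siTDP43 IgG, with every IP library above every IgG library (log2 0.79 ± 0.173, n = 3 and 3, edgeR adjusted p = 0.000347). This difference was 0.27 with the GC trend removed (edgeR adjusted p = 0.163). Over input PABPC4 was 5.02-fold higher (log2 2.33 ± 0.151, edgeR adjusted p = 4.4e-12). ATXN2L was at 22.81, 27.14 and 27.53 CPM in IP and at 27.17, 18.21 and 23.13 CPM in IgG, which overlapped. TIAL1 was at 89.09, 75.26 and 92.43 CPM in IP and at 66.09, 59.08 and 51.95 CPM in IgG, which did not.

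G3BP2 was at 170.5, 215.9 and 210.5 CPM in siTDP43 IP and at 141.0, 112.5 and 158.7 CPM in siTDP43 IgG. Here IP lay above IgG in every library, at a log2 difference of 0.46 ± 0.109 (edgeR adjusted p = 0.000758). G3BP1 was at 116.5, 106.8 and 118.5 CPM in IP and at 75.63, 89.83 and 91.45 CPM in IgG (log2 0.34 ± 0.088, edgeR adjusted p = 0.00169). With the GC trend removed, IP lay below IgG for both scaffolds, at -0.51 for G3BP2 and -0.60 for G3BP1. Their direction over IgG in siTDP43 thus turned with the treatment of GC content.

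USP10 was at 49.48, 41.32 and 42.23 CPM in siTDP43 IP and at 39.65, 40.47 and 53.37 CPM in siTDP43 IgG, which overlapped and were both far below its input. CAPRIN1 was at 133.1, 136.2 and 135.3 CPM in IP and at 192.0, 178.9 and 158.0 CPM in IgG. TIA1 was at 42.80, 38.29 and 52.69 CPM in IP and at 46.26, 48.96 and 54.09 CPM in IgG. Only CAPRIN1 of these 3 kept IP and IgG apart, with IP lower. PABPC1 was at 564.5, 557.7 and 556.6 CPM in IP and at 625.6, 544.7 and 586.8 CPM in IgG, which overlapped.

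IgG against input in siTDP43 was higher for PABPC4 (log2 1.54 ± 0.183) and ATXN2L (1.14 ± 0.192), 2 of 9 against 24.7% of genes. It was lower for G3BP1 (-2 ± 0.086), USP10 (-1.65 ± 0.116) and G3BP2 (-1.25 ± 0.107), 3 of 9 against 41% of genes. With siTDP43 IgG replicate 1 left out, 1 member was higher rather than 2, and scaling by total count gave 0 higher and 5 lower. With the GC trend removed there were 4 higher and 0 lower, with no share of all genes taken under these settings.

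**Figure D3:**
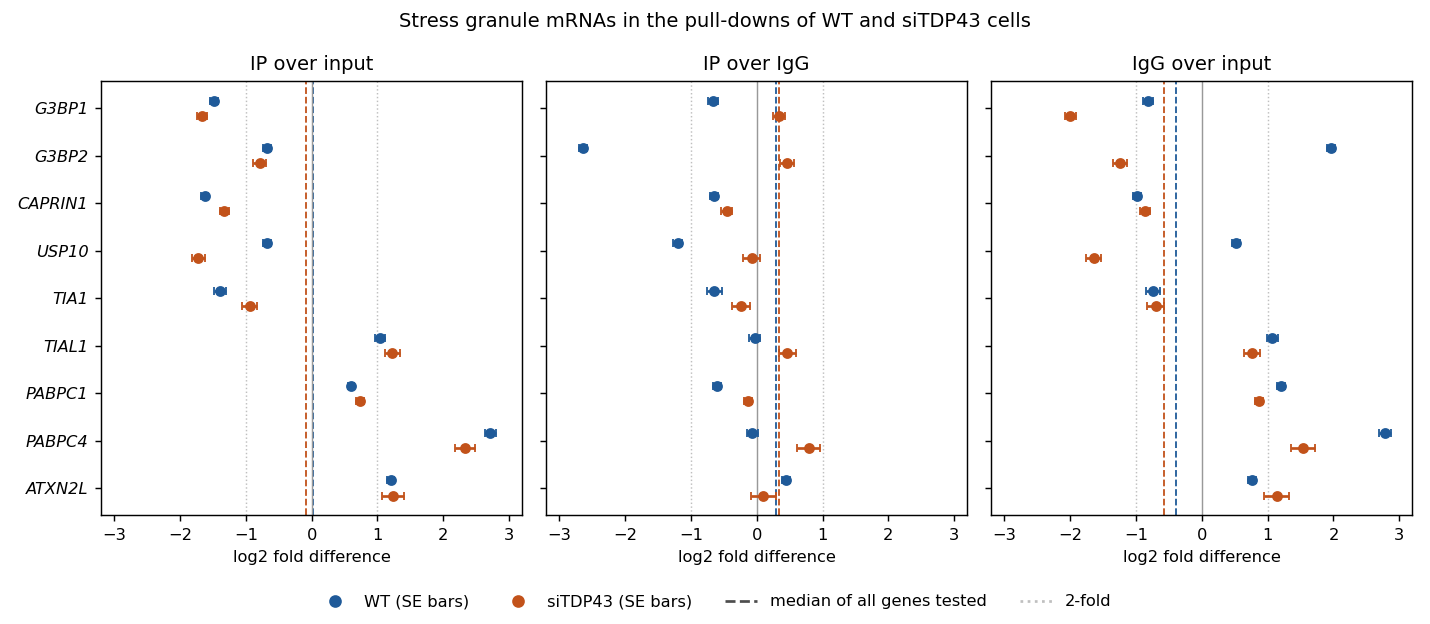
Log2 differences with SE bars for the 9 stress granule mRNAs between IP and input, IP and IgG, and IgG and input, in WT (blue) and siTDP43 (orange), with the median of all genes tested (dashed) and 2-fold lines (dotted). IP over IgG reaches no more than 0.79 for any member, and the G3BP2 points of the 2 genotypes lie on opposite sides of 0 for IgG over input.

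The difference in enrichment between the genotypes was then tested, as the interaction term of the fit to all 17 libraries. For IP over input, 4 members were lower in siTDP43 than in WT (4 of 9, against 36.3% of 15165 genes) and none was higher (0 of 9, against 31.5%). At an unadjusted p under 0.05 edgeR put 1 member above 0 (TIA1). At an adjusted p under 0.05 DESeq2 called 0 higher. USP10 had the largest change, at -1.19 ± 0.114 (n = 3 in each of 4 groups, edgeR adjusted p = 1.52e-11). PABPC4 changed by -0.53 ± 0.146 (edgeR adjusted p = 0.00171), G3BP1 by -0.32 ± 0.099 (edgeR adjusted p = 0.00419) and G3BP2 by -0.26 ± 0.115 (edgeR adjusted p = 0.0462). The median of all genes was -0.19, so the G3BP1 and G3BP2 values lay close to that of a typical gene.

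With the GC trend removed, USP10 was at -0.93, G3BP1 at -0.25, G3BP2 at -0.20 (edgeR adjusted p = 0.0723) and PABPC4 at 0.02 (edgeR adjusted p = 0.967). PABPC4 and G3BP2 were then no longer called, while ATXN2L at 0.49 and PABPC1 at 0.19 were called higher. The G3BP2 call was also lost on leaving out WT input replicate 1, 2 or 3, WT IP replicate 1 or 2, siTDP43 input replicate 2 or 3, or siTDP43 IP replicate 1, with adjusted p up to 0.196. TIA1, at 0.30 ± 0.146 (edgeR adjusted p = 0.0682), was called higher without WT IP replicate 2 (0.37) or siTDP43 IP replicate 2 (0.395). Of the 4, only USP10 and G3BP1 kept their call in every setting tried.

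The 4 members lower in this interaction, G3BP1, G3BP2, USP10 and PABPC4, were the 4 with a TGTGCG match in the windows above. The coincidence was seen after the values were known and was not tested. Among the genes tested whose exon length lay in the members' span, 47.8% of the 2367 with a match were called lower (median log2 -0.65), against 43.4% of the 4193 without one (median -0.45). USP10, with 3 matches, had the largest change of the members, and G3BP2, with 2, the smallest of these 4.

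For IP over IgG, 8 members were higher in siTDP43 than in WT (8 of 9, against 34.9% of genes) and none was lower (0 of 9, against 25.9%), with 0 below 0 at an unadjusted p under 0.05 in edgeR and 1 called lower by DESeq2. The median of all genes was 0.24. G3BP2 changed most, by 3.15 ± 0.130 on the log2 scale (n = 3, 3, 3 and 2, edgeR adjusted p = 1.31e-21). USP10 changed by 1.18 ± 0.140, G3BP1 by 1.06 ± 0.119 and PABPC4 by 0.91 ± 0.180 (edgeR adjusted p of 2.22e-09, 5.75e-10 and 3.24e-05). TIAL1 followed at 0.55 ± 0.154, PABPC1 at 0.52 ± 0.086, TIA1 at 0.46 ± 0.180 and CAPRIN1 at 0.24 ± 0.104 (edgeR adjusted p = 0.00215, 1.98e-06, 0.0259 and 0.0475). The share of genes with a lower value ran from 50% for CAPRIN1 to 55.4% for TIAL1, so TIAL1, PABPC1, TIA1 and CAPRIN1 lay close to a typical gene. ATXN2L was at -0.30 ± 0.168 (edgeR adjusted p = 0.121).

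USP10, G3BP1, G3BP2 and PABPC4 therefore had IP over input lower and IP over IgG higher in the same siTDP43 libraries, which share the IP values and differ in the control. Their IgG levels in WT and siTDP43, given above, were 345.1 to 372.0 and 112.5 to 158.7 CPM for G3BP2 and 182.8 to 186.9 and 39.65 to 53.37 CPM for USP10. For PABPC4 they were 188.2 to 238 and 18.36 to 27.75 CPM. The IgG levels of G3BP1 overlapped, at 80.31 to 88.71 CPM in WT and 75.63 to 91.45 CPM in siTDP43, so a lower IgG was not shared by G3BP1. GC content moved with this interaction too, the all-gene median falling from 1.04 at up to 40% GC to -0.51 above 60%. With the trend removed 3 members stayed higher, G3BP2 at 2.14, PABPC4 at 0.96 and USP10 at 0.71. TIA1, TIAL1 and CAPRIN1 were then lower, at -0.81, -0.56 and -0.88. With DESeq2's size factors or test, 5 members were higher and 1 lower.

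Related members were also compared within each library, as ratios of counts per kilobase, so that scaling between libraries drops out. These ratios were chosen after the counts had been seen, and with 3 libraries against 3 the exact two-sided permutation test cannot give a p below 0.1, the value found in all 12 comparisons. The G3BP2 to G3BP1 ratio was 0.389, 0.373 and 0.395 in the WT inputs and 0.558, 0.599 and 0.626 in the siTDP43 inputs, so it was higher in every siTDP43 library. It reached 2.89 and 2.42 in WT IgG.

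The TIAL1 to TIA1 ratio was 1.06, 1.07 and 1.18 in the WT inputs and 0.484, 0.472 and 0.565 in the siTDP43 inputs, a swap of which gene was the more abundant. In the pull-downs TIAL1 exceeded TIA1 in every library, at 5.28, 5.72 and 6.93 in WT IP and 2.46, 2.32 and 2.07 in siTDP43 IP. PABPC4 was a small part beside PABPC1 in every group, with a ratio of 0.0329, 0.0364 and 0.0350 in the WT inputs and 0.0206, 0.0243 and 0.0217 in the siTDP43 inputs. In WT IP it was 0.147, 0.149 and 0.156. All 3 ratios were higher in IP than in input in each genotype, without overlap. They were also higher in IgG than in input in each genotype, with TIAL1 to TIA1 at 3.47 and 4.33 and PABPC4 to PABPC1 at 0.0953 and 0.112 in WT IgG.

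**Figure D4:**
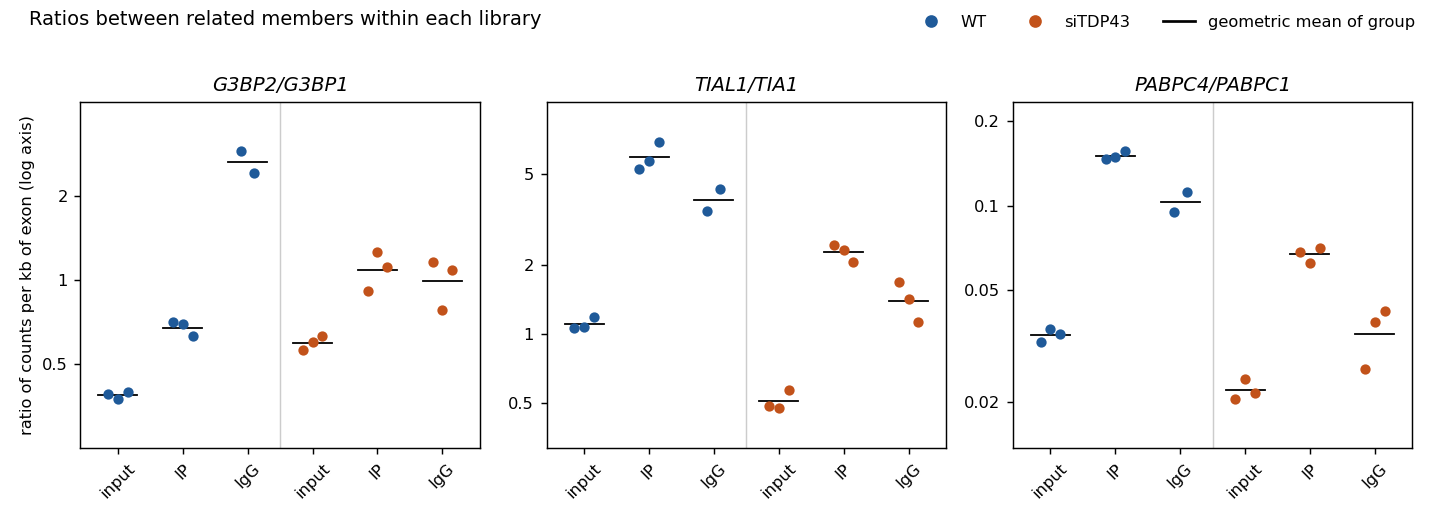
Ratio of counts per kilobase of exon (log axis that differs between panels) between related stress granule mRNAs in each of the 17 libraries, with a line at the geometric mean of each group. TIAL1 to TIA1 falls from 1.10 in WT input to 0.505 in siTDP43 input and rises to 5.94 in WT IP and 2.28 in siTDP43 IP.

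Other genes of the same biology were counted from lists chosen by function. Each count is to be read against the share of all genes called, which was 38.6% higher and 40.6% lower in siTDP43 input, 31.5% and 36.3% in the change of IP over input, and 34.9% and 25.9% in that over IgG. Of 36 other granule proteins, 17 rose and 15 fell in siTDP43 input, with a median log2 change of 0.05 beside -0.05 for all genes. DDX3X, an RNA helicase, rose by 2.16 ± 0.040 and YTHDF3, a reader of methylated adenosine, by 1.83 ± 0.066. YBX3, a cold shock domain protein, was at -2.06 ± 0.067 and UPF1, the helicase of nonsense-mediated decay, at -2.48 ± 0.139 (edgeR adjusted p at most 1.59e-16). For IP over input, 8 of 36 were higher and 19 lower in siTDP43 than in WT, from FUBP3 at 2.35 and YBX1 at 1.4 to IGF2BP2 at -1.87 and PRRC2C at -4.23. For IP over IgG, 18 were higher and 16 lower, with UBAP2 at 4.10, PRRC2C at -2.73 and FXR2 at -4.69.

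Partners of the poly(A) tail (deadenylases, PABP-interacting and termination factors) gave 11 rises and 8 falls among 21 tested in input, at a median of 0.14. TOB1, which links PABPC1 to deadenylation, was at 2.41 ± 0.060 and PAN3, a subunit of the PAN deadenylase, at 1.48 ± 0.091. PAIP1 and PAIP2, which bind PABPC1 and respectively favour and repress translation, were at -1.42 ± 0.062 and -1.52 ± 0.050, so both fell, as PABPC1 did (edgeR adjusted p at most 1.61e-15 for these 4). In the change of IP over input, 7 were higher and 8 lower, with PAIP1 at 2.16, CNOT8 at 1.23, GSPT2 at -2.69 and PABPC1L at -3.08. In that over IgG, 12 were higher and 5 lower, with GSPT2 at -1.77 and LARP1 at -2.06. PAN2 and PABPC1L were also called higher by the fit, with at most 3 counts in every siTDP43 IgG library. Set against that floor, the change was a log2 of at least 3.31 for PAN2, whereas for PABPC1L the direction is not settled.

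The eIF2alpha phosphorylation list, which holds the kinases, phosphatase subunits and targets of the trigger of granule assembly, gave 4 rises and 7 falls among 12 in input (median -0.64). EIF2S1, which encodes eIF2alpha, rose by 1.26 ± 0.042 and EIF2S3, which encodes eIF2gamma, by 1.13 ± 0.039. The stress-induced PPP1R15A, a phosphatase subunit that restores eIF2alpha, was at -2.51 ± 0.050 and ATF3, a stress-induced transcription factor, at -3.85 ± 0.042 (edgeR adjusted p at most 7.41e-22). Of the changes of IP over input, 6 were higher and 6 lower, from EIF2AK1 at 1.61 and DDIT3 at 1.36 to EIF2S3 at -1.02 and EIF2AK2 at -2.53. Over IgG, 7 were higher and 2 lower, with EIF2S2 at 0.98, PPP1R15B at -0.62 and EIF2AK1 at -0.98. PPP1R15A was higher as well, with at most 3 counts in every siTDP43 IgG library.

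P-bodies are the neighbouring granules of mRNA decay. Of 18 of their proteins, 10 rose and 6 fell in input (median 0.32), with DDX6, the helicase they need, at 1.22 ± 0.080 and AGO1 at 1.15 ± 0.168. AGO2, the slicing Argonaute, was at -1.01 ± 0.195 and NOCT at -0.77 ± 0.176 (edgeR adjusted p at most 0.000221). For IP over input, 2 were higher (DCP2 at 1.3 and PNRC2 at 1.17) and 12 lower, down to TNRC6A at -2.03 and TNRC6B at -2.82. Over IgG, 8 were higher and 7 lower, with TNRC6C at 5.91, PATL1 at -1.06 and DCP1B at -3.3. AGO2 was higher there with at most 3 counts in every siTDP43 IgG library.

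Genes of the response to dsRNA, a trigger that can phosphorylate eIF2alpha through PKR, mostly fell: 12 of 16 tested were lower and 3 higher in siTDP43 input (median -3.79, the same with genes at the floor set to their bound). EIF2AK2, which encodes PKR and is also on the eIF2alpha list, rose by 0.77 ± 0.085 (edgeR adjusted p = 1.5e-09). CCL5 and CXCL10 had at most 3 counts in every siTDP43 input and were at least 1694-fold and 459-fold lower than in WT, against a floor of 3 counts per library. These interferon-response mRNAs moved with the genotype beside the members, and their part in the members' changes was not tested. As to IP over input, 1 of 17 was higher (ISG15 at 1.39) and 7 were lower. IFIT3 was among the lower ones, with at most 3 counts in every siTDP43 IP library. Over IgG, 5 were higher and 2 lower, ZC3HAV1 at -0.48 being lower. IFIT1 and IFIT2 were called higher with at most 3 counts in every siTDP43 IgG library, and against that floor the direction of IFIT2 is not settled. CCL5 was lower with at most 3 counts in every siTDP43 IP library.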

How the data were processed

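The authors isolated poly(A) RNA, made low-input libraries by Smart-seq2 and, per the labels, processed reads with Trim Galore 0.6.7, STAR 2.7.10a and featureCounts 2.0.2. The deposited table, aligned to hg19 per the methods, holds raw counts per gene, not normalized. Strand and pair settings are not given in the sources used here. Of counts from 1 to 20, 81.3 to 95.9% were even, so mates appear to have been counted singly. There were no molecular identifiers, so reads are not independent molecules. The SD, SE and p-values come from the spread between libraries. The SD is that of the libraries of 1 group. The SE is the size of the log2 change divided by the square root of edgeR's F statistic. That statistic uses a spread moderated over all genes and pooled over all groups of the fit. Enrichment is relative within a library, since no use was made of the acetylated spike-in.

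Groups and replicate numbers came from the labels. No library duplicated another (chi-square over its degrees of freedom was 3.26 to 9.43 for pairs of replicates). Residuals of same-numbered libraries correlated between -0.02 and 0.03, so no block was used in the main fits. Such values cannot show whether same-numbered libraries came from the same RNA.

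The main test was that of edgeR 4.0.16 in R 4.3.3 on the counts (quasi-likelihood F test, two-sided, TMM, filterByExpr with minimum count 10, Benjamini-Hochberg over all genes tested). The fits held 6 inputs, 8 WT libraries, 9 siTDP43 libraries or all 17. Calls needed an adjusted p under 0.05, and within a genotype also a fold above 2. CPM in the text uses TMM-scaled library sizes, except for the cell type markers, where library totals were not scaled. Folds against groups with at most 3 counts in every library are bounds. Alternatives were DESeq2 1.42.0, its size factors, total count scaling, other filters, limma 3.58.1 on log2(FPKM + 1), counts halved, a GC trend removed, other thresholds, all libraries in 1 fit, the block, and each library left out. Tests were tried on simulated data. Sequence came from the GRCh37 genome, with regions from GENCODE.

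The members and lists were chosen with earlier results of these data known. Named genes were the 9 members, TARDBP, NAT10, the most alike gene of each member and, per list, the 2 highest and 2 lowest log2 changes past the threshold among genes averaging 100 counts or more, in input and both interactions. YBX3, NOCT, AGO1 and AGO2 stand under older symbols in the table. A gene that this rule gives is not reported here and was not replaced; it stayed in every fit and count.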

Additional observations from a re-analysis of the deposited data

Results flagged for a closer look

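The difference in enrichment between siTDP43 and WT passed the test of the difference itself (edgeR adjusted p under 0.05) for 12 values of 8 members. For IP over input it was -1.19 for USP10, -0.53 for PABPC4, -0.32 for G3BP1 and -0.26 for G3BP2, all on the log2 scale. For IP over IgG it was 3.15 for G3BP2, 1.18 for USP10, 1.06 for G3BP1, 0.91 for PABPC4, 0.55 for TIAL1, 0.52 for PABPC1, 0.46 for TIA1 and 0.24 for CAPRIN1. The medians of all genes were -0.19 for IP over input and 0.24 for IP over IgG. No group of libraries was large enough for a test of single libraries that stand apart.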

How the results depend on the processing

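All 9 changes in input kept their direction and call under every alternative. The counts of ac4C(+) members stayed at 0, but every alternative tried for them kept a fold threshold, so a 0 without it was not shown. By an adjusted p under 0.05 alone, ATXN2L in WT lay above both controls (log2 1.202 over input and 0.444 over IgG). In siTDP43 so did PABPC4 (2.328 and 0.787) and TIAL1 (1.227 and 0.463). Over all comparisons, 1478 of 1611 values for single members kept their direction and call, 59 lost a call, 31 gained one and 43 turned sign, and 38 of 411 counts of members moved. Total count scaling moved the all-gene median of siTDP43 IgG over input from -0.58 to -1.13, that of siTDP43 IP over input from -0.09 to -0.43 and that of the change of IP over input from -0.19 to -0.48, and DESeq2's size factors moved that of the change of IP over IgG from 0.24 to 0.03. The cause of the shifts below was not tested, and the counts of members below have no share of all genes beside them.

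With the GC trend removed, signs turned for IP over IgG in WT (ATXN2L -0.58) and in siTDP43 (ATXN2L -0.30, G3BP1 -0.60, G3BP2 -0.51, TIAL1 -0.55), for IgG over input in WT (TIA1 0.081) and in siTDP43 (CAPRIN1 0.59, G3BP2 0.16, TIA1 0.89), for the change of IP over input (ATXN2L 0.49, PABPC1 0.19, PABPC4 0.015) and for that of IP over IgG (ATXN2L 0.074, CAPRIN1 -0.88, PABPC1 -0.068, TIA1 -0.81, TIAL1 -0.56). Members counted were then 2 higher and 0 lower in WT IP against input, 5 higher in WT IgG against input, 2 higher and 2 lower in siTDP43 IP against input, 2 lower in siTDP43 IP against IgG, 4 higher and 0 lower in siTDP43 IgG against input, 2 higher and 2 lower in the change of IP over input, and 3 higher and 3 lower in that of IP over IgG.

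Total count scaling and limma on log2(FPKM + 1) turned the sign of CAPRIN1 (-0.14 and -0.15) and TIAL1 (-0.25 and -0.25) in the change of IP over input, of PABPC4 (0.062 and 0.067) and TIAL1 (0.097 and 0.093) in WT IP over IgG, and of PABPC1 (0.072 and 0.074) and USP10 (0.13 and 0.13) in siTDP43 IP over IgG, and limma that of TIA1 (-0.051) in the change of IP over input. Both gave 1 higher and 5 lower in siTDP43 IP against input and 0 higher and 5 lower in siTDP43 IgG against input. Total count scaling, no low-count filter and all libraries in 1 fit each gave 1 lower in WT IgG against input, and the last 1 higher in siTDP43 IgG against input. DESeq2's test and its size factors each put TIAL1 at -0.016 in the change of IP over input and gave 5 higher and 1 lower in that of IP over IgG. Counts halved gave 1 higher in the change of IP over input.

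Without the fold threshold there were 5 lower in WT IP against input, 1 higher and 6 lower in WT IP against IgG, 3 lower in WT IgG against input, 5 lower in siTDP43 IP against input, 4 higher and 2 lower in siTDP43 IP against IgG, and 4 higher and 5 lower in siTDP43 IgG against input. Leaving out each library in turn gave -0.23 to 0.12 for PABPC4 and -0.12 to 0.062 for TIAL1 in WT IP over IgG, -0.15 to 0.075 for USP10 and -0.035 to 0.24 for ATXN2L in siTDP43 IP over IgG, and -0.034 to 0.13 for TIAL1 and -0.084 to 0.012 for PABPC1 in the change of IP over input. Counts ran from 1 to 2 higher in siTDP43 IgG against input, 0 to 1 higher in the change of IP over input, and 6 to 8 higher and 0 to 1 lower in that of IP over IgG. They also ran from 2 to 3 higher in WT IP against input and 3 to 4 higher in WT IgG against input. There TIAL1 came down to 0.994 and 0.969, under the fold threshold. Lower members ran from 3 to 4 in siTDP43 IP against input and in the change of IP over input. Without a WT IgG library the other one is assumed to vary like the rest.

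The replicate block changed 1 call of 81, CAPRIN1 in the change of IP over IgG (0.23, edgeR adjusted p = 0.0635). Depth limits PABPC4 and ATXN2L most, at 50 to 78 and 45 to 74 counts in the siTDP43 IgG libraries.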

Other observations

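Each member's profile of log2 CPM over the 17 libraries was set beside that of every other gene with a mean of at least 100 counts, 10140 in all. The gene most like G3BP1 was GLUL (Pearson r = 0.992), and that most like G3BP2 was RPS6KB1 (0.978). CAPRIN1 was closest to FASTKD2 (0.989), USP10 to LPCAT3 (0.975), TIA1 to GMFB (0.977) and TIAL1 to DNAJC21 (0.974). PABPC1 was closest to CIRBP (0.988), PABPC4 to XPO6 (0.988) and ATXN2L to CD151 (0.986). No member was the closest gene of another member. The libraries fall into 6 groups and share their depth and cDNA preparation, so these values describe the table and carry no p.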
